A study of Arabidopsis thaliana with 7 samples.

Results

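The IQD proteins are a plant family named after the IQ67 domain, a stretch with calmodulin-binding IQ motifs. The 30 genes described here, IQD1 to IQD5 and IQD9 to IQD33, are all IQD genes of the array other than IQD6, IQD7 and IQD8, out of 27826 probe sets in all. They were taken by locus identifier and not by any measured value, and each has 1 probe set, named after its locus (AT3G09710_at for IQD1, AT3G16490_at for IQD26, AT1G74690_at for IQD31). RNA was measured on 7 one-colour arrays of Arabidopsis thaliana embryos at the 8-cell stage, 4 of wild type and 3 of the mutant Bodenlos (bdl), which affects IAA12. All arrays come from the Columbia (Col-0) ecotype, and each sample was a pool of roughly 40 to 50 isolated embryos. The labels give neither the bdl allele nor its zygosity or any driving promoter, and the design text speaks of 3 samples per genotype where 4 wild-type samples are labelled. They also do not say whether samples of 1 genotype came from separate harvests, so p-values measure the spread between these samples, which may be technical.

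IQD proteins act as scaffolds. Many of them lie along cortical microtubules, bind calmodulin, the main calcium sensor of the cell, and recruit partners such as the kinesin light chain-related (KLCR) proteins. The family is known for its part in cell shape and growth, as in tomato, where the IQD gene SUN elongates the fruit. IQD6, IQD7 and IQD8 act in the placement of the division plane, whose orientation in the embryo is the subject of the series. In the embryo the auxin response runs through the factor MONOPTEROS, which IAA12 represses when auxin is low. The comparison of genotypes asks which IQD transcripts differ when that response is altered.

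IAA12 itself had intensities of 167, 152, 135 and 144 on the wild-type arrays and 432, 477 and 443 on the bdl arrays, and so was higher in bdl (log2 difference 1.59 ± 0.17, SE; limma, adjusted p = 0.00287). The probe set reports the transcript and not the protein sequence, so this level does not by itself check the genotype. Array medians of intensity ran from 8.44 to 9.37. Of 10 embryo markers, all lay above the midpoint of all intensities (8.94) on every array. Their summed intensity was 4851 to 5690 in wild type, while that in bdl was 3173 to 3624. PDF1 (geometric means 1448 in wild type and 204 in bdl) and WOX9 (1292 and 731) carried most of that gap. WOX2, WOX8 and ATML1 had log2 differences of -0.17, -0.02 and -0.19, none called. Of the 10 markers, 8 had a difference below 0 and 2 above. PDF1, DRN and BBM were the 3 embryo markers that passed the test between genotypes, all lower in bdl. WOX9 was also lower on every bdl array without passing (log2 difference -0.82; limma, adjusted p = 0.088). LEC1 was higher on every bdl array, also without passing (0.68; limma, adjusted p = 0.227). Markers of other tissues varied between arrays of 1 genotype. The summed intensity of 14 pollen markers was 62.7 to 912 in wild type, highest in replicate 4, and 50.5 to 355 in bdl, highest in replicate 2. That of 12 seed coat markers was 219 to 649 in wild type; in bdl it was 96.5 to 437, lowest in replicate 3. That of 9 endosperm markers was 202 to 346 and 111 to 214, of which SUC5 carried most, while the defining genes FIS2, FWA, AGL62 and PHE1 stayed at or below 8.64 on every array. The seed coat markers STK (log2 difference -1.72) and TT2 (-1.40) were lower on every bdl array than on any wild-type array. The seed coat marker TT1 (0.77) and FIS2 (0.35) were higher on every one. The wild-type values of TT1 and FIS2 were all under 3.51, the 25th percentile of all intensities. No member of any of these marker lists other than the 3 embryo genes passed the test.

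None of the 30 IQD genes passed the test between genotypes. A gene was called when the adjusted p of its log2 difference, bdl minus wild type, was under 0.05 (limma on log2 intensity, adjusted by Benjamini-Hochberg over all 27826 genes). By that rule 0 of 30 IQD genes were called, where 490 genes, or 1.76% of all, were called. The smallest adjusted p among the 30 was 0.144. An unadjusted p under 0.05 was found for 5 of 30, or 16.7%, beside 10.7% of all genes. The log2 differences ran from -0.70 for IQD18 to 1.49 for IQD26 with a median of 0.13, and the median over all genes was -0.01. They lay above 0 for 16 genes and below 0 for 14, and 1 gene, IQD26, differed by 1 or more. With so few arrays these values are imprecise: the SE of a log2 difference was 0.17 to 0.59 over the 30 genes, with a median of 0.28.

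**Figure D1:**
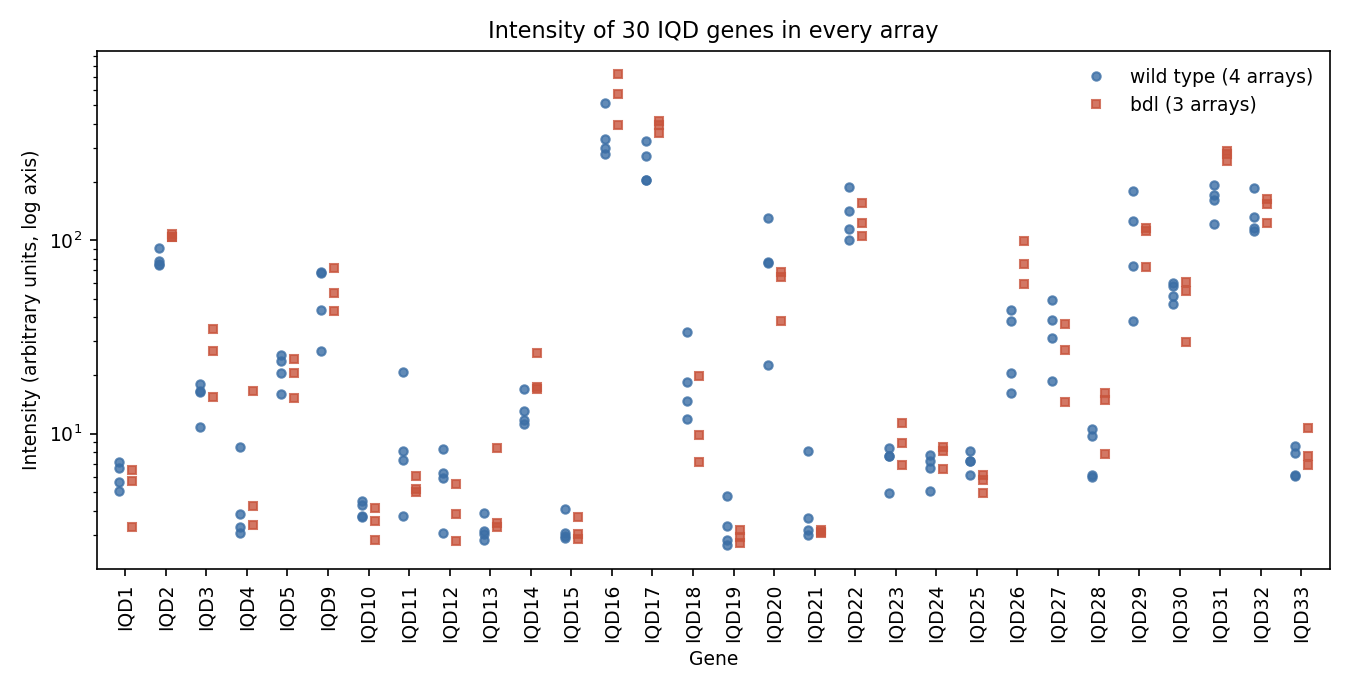
Intensity (arbitrary units, log axis) of the 30 IQD genes on each array, with wild type as circles (4 arrays) and bdl as squares (3 arrays). Genotypes overlap in 25 genes, and in 5 genes (IQD2, IQD14, IQD17, IQD26 and IQD31) all bdl arrays lie above all wild-type arrays.

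For 5 IQD genes every bdl array was higher than every wild-type array, and for none was every bdl array lower. Of all genes, 11.2% had no overlap between genotypes in either direction, beside 16.7% of the 30, and the 5 are the same genes that had an unadjusted p under 0.05. IQD26 had intensities of 16.2, 20.5, 43.6 and 38.2 in wild type and 99.4, 75.4 and 59.6 in bdl. Wild type itself was split here, with replicates 1 and 2 at less than the level of replicates 3 and 4. The ratio of geometric means, bdl over wild type, was 2.80, with a 95% interval of 1.51 to 5.19 (log2 difference 1.49 ± 0.38, SE; limma, adjusted p = 0.144). Over the omissions of 1 array the log2 difference of IQD26 was 1.24 to 1.71.

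IQD31 was measured at 161, 172, 194 and 121 in wild type and at 291, 279.5 and 258 in bdl. The bdl arrays lay close together (SD 0.09 on the log2 scale, n = 3), and the ratio was 1.72 with an interval of 1.23 to 2.41 (log2 difference 0.79 ± 0.21, SE; limma, adjusted p = 0.156). IQD17 had 206, 326, 275 and 204 in wild type against 358, 413 and 394 in bdl, a ratio of 1.56 (1.095 to 2.23; limma, adjusted p = 0.316). For IQD17 the highest wild-type array, replicate 2, came near the lowest bdl array.

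IQD14, which twists organs when overexpressed, had 16.9, 11.2, 13.1 and 11.8 in wild type and 17.1, 17.4 and 26.3 in bdl. Replicate 1 of wild type and replicate 1 of bdl nearly met, and the ratio was 1.52 (1.03 to 2.23; limma, adjusted p = 0.418). IQD2 had the smallest spread in wild type of the 30 genes (SD 0.13 on the log2 scale, n = 4), with intensities of 77.9, 91.2, 75.8 and 74.7 in wild type and 108, 104 and 104 in bdl. Its ratio was 1.32, with an interval of 1.01 to 1.73 (limma, adjusted p = 0.445). All 5 differences kept their direction under every scaling, filter and omission tried, and none was called in any of them. The omissions and filters could not have reversed them, since these 5 genes were picked for having no overlap.

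**Figure D2:**
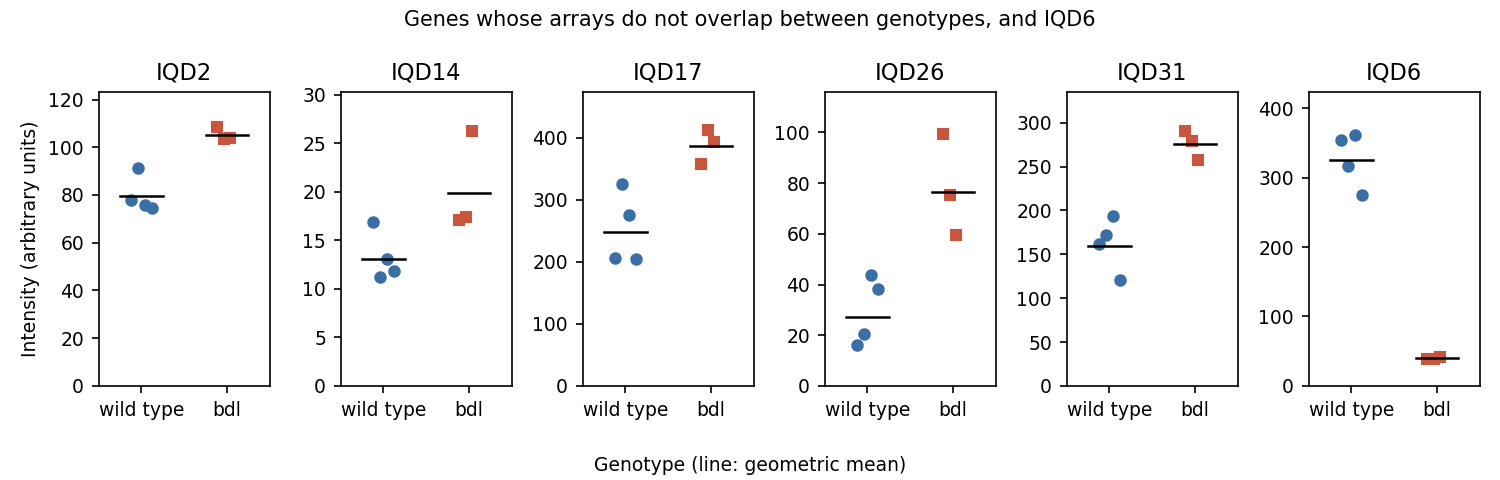
Intensity (arbitrary units, linear axis from 0) by genotype for the 5 IQD genes whose arrays do not overlap and for IQD6, with each array as a point and the geometric mean as a line. The 5 genes lie higher on all 3 bdl arrays, while IQD6 lies at 38.2 to 41.5 in bdl, below its 275 to 362 in wild type.

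IQD16, which elongates cells when overexpressed, had intensities of 300.3, 515, 280.2 and 333 in wild type and 572, 397 and 723 in bdl. Replicate 2 of wild type exceeded replicate 2 of bdl, so the genotypes overlapped, and the ratio of 1.58 had an interval of 0.99 to 2.52 (limma, adjusted p = 0.479). IQD5, which shapes leaf pavement cells through cortical microtubules, had 23.6, 25.7, 16.1 and 20.5 in wild type and 24.3, 20.6 and 15.2 in bdl. The genotypes overlapped in IQD5, and its log2 difference of -0.10 had an interval of -0.67 to 0.46 and was -0.25 to 0.08 over the omissions of 1 array.

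IQD13, which sets the edge of pits in the secondary wall of xylem vessels, had 2.80, 3.15, 3.88 and 3.03 in wild type and 8.47, 3.44 and 3.28 in bdl. Only bdl replicate 1 stood higher, and without it the log2 difference was 0.07 in place of 0.52. IQD1, whose overexpression raises glucosinolate levels and which binds KLCR1 and calmodulin, had 5.65, 7.10, 6.67 and 5.03 in wild type and 6.48, 5.66 and 3.28 in bdl. Its log2 difference was -0.29 (interval -0.92 to 0.34), and without bdl replicate 3 it was 0.00. IQD11, which also alters cell shape when overexpressed, had 7.33, 8.14, 3.73 and 20.8 in wild type and 5.16, 6.0 and 5.01 in bdl. The high value belonged to wild-type replicate 4, and without that array the log2 difference was -0.17 in place of -0.62.

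The other members with the smallest p overlapped between genotypes as well. IQD3 had 18.0, 16.5, 10.8 and 16.6 in wild type and 35.0, 15.5 and 26.6 in bdl, with a log2 difference of 0.68 ± 0.32 (SE; limma, adjusted p = 0.506). Replicate 2 of bdl lay among the wild-type values of IQD3, and the other bdl arrays above them. IQD28 had 5.94, 10.6, 9.68 and 6.10 in wild type and 15.0, 16.2 and 7.82 in bdl (log2 difference 0.66 ± 0.34; limma, adjusted p = 0.564), and here replicate 3 was the bdl array within the wild-type range. IQD25 had 8.09, 7.25, 6.08 and 7.19 in wild type and 6.11, 4.93 and 5.75 in bdl (log2 difference -0.35 ± 0.19; limma, adjusted p = 0.581). IQD25 and IQD18 were the only members below 0 among the 10 with the smallest p. IQD18 had 11.8, 14.8, 33.5 and 18.5 in wild type and 19.8, 7.12 and 9.84 in bdl (log2 difference -0.70 ± 0.44; limma, adjusted p = 0.663). Without bdl replicate 1 the difference of IQD18 was -1.12, and without bdl replicate 2 it was -0.38. Its highest wild-type array was replicate 3, and its highest bdl array, replicate 1, lay above 3 of the 4 wild-type arrays.

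The remaining members had log2 differences between -0.50 (IQD12) and 0.54 (IQD4), which over the omissions of 1 array were -0.79 to -0.26 for IQD12 and -0.18 to 0.98 for IQD4. IQD22 and IQD32 were measured well above the midpoint of all intensities on every array, in wild type at 100.5 to 190 and 112 to 187, and in bdl at 105 to 156 and 123 to 164. Their differences were -0.07 (interval -0.68 to 0.55) and 0.13 (interval -0.42 to 0.68), so that a 2-fold change either way lies outside both intervals. IQD30 spanned 46.6 to 60.5 (wild type) and 29.7 to 61.2 (bdl), and IQD9 spanned 26.8 to 68.5 and 43.0 to 72.2. IQD15, with a log2 difference of -0.02, and IQD19, with -0.17, stayed at or below 4.78 on every array. Both had genotype means under 3.51, the 25th percentile of all intensities, where a change could be missed since no detection calls were used here. IQD10 (2.82 to 4.48 over the 7 arrays) and IQD21 (2.99 to 8.12) lay near it too. IQD12, IQD23, IQD24 and IQD33 had differences of -0.50, 0.34, 0.22 and 0.22, and no array of these 4 genes exceeded 11.4.

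The spread within a genotype differed widely among the 30 genes. In wild type the SD of log2 intensity ran from 0.13 for IQD2 to 1.08 for IQD20 with a median of 0.34 (n = 4), and in bdl from 0.02 for IQD21 to 1.25 for IQD4 with a median of 0.36 (n = 3). The spread was smaller in bdl for 16 of the 30 genes. IQD20 had 76.4, 77.6 and 131 in wild-type replicates 1 to 3 but 22.5 in replicate 4, and 64.9, 38.1 and 68.9 in bdl. IQD29 likewise had 74.0, 127 and 180 in wild-type replicates 1 to 3 against 38.4 in replicate 4, and 112, 72.4 and 115 in bdl. Without wild-type replicate 4 the log2 differences were -0.73 for IQD20 and -0.28 for IQD29, against -0.22 and 0.13 with it.

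IQD4 was at 3.08 to 3.83 in wild-type replicates 1 to 3 and at 8.53 in replicate 4, and in bdl at 4.22 and 3.36 but 16.7 in replicate 2. Of the 14 pollen markers, 13 had their highest wild-type value in replicate 4 and 12 their highest bdl value in replicate 2, and for 6 these 2 arrays were the highest of all 7. The pollen tube peptide genes RALF4 (65.7 and 16.4, at most 3.06 elsewhere) and RALF19 (72.9 and 33.5, at most 5.97 elsewhere) were among the 6. ANX1 was not, with 52.9 in wild-type replicate 4 but 5.34 in bdl replicate 2, where bdl replicate 3 had 6.66. The summed pollen markers were also high in wild-type replicate 2 (326), where IQD4 was at 3.08. Within each genotype the summed endosperm markers were lowest on the array where IQD20 and IQD29 were lowest. The sums were 346, 320, 344 and 202 in wild-type replicates 1 to 4 and 214, 111 and 198 in bdl replicates 1 to 3. SUC5 carried most of each sum. Between genotypes the match did not hold, as bdl replicate 3 had a sum near that of wild-type replicate 4 but IQD20 at 68.9 against 22.5. The summed seed coat markers were lowest in wild-type replicate 4 (219) as well, but not in bdl replicate 2 (437). The part of pollen, endosperm or seed coat RNA in the values of IQD4, IQD11, IQD20 and IQD29 was not tested. In pools of whole embryos, fewer cells of a type and less RNA per cell cannot be told apart.

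A gene without a call may still differ, and the intervals give the range of differences that the arrays allow. For 13 of the 30 genes, or 43.3%, the 95% interval lay wholly within a 2-fold change either way, beside 59% of all genes. The interval reached a 2-fold higher level in bdl for 12 of the 30 genes and a 2-fold lower level for 7. The widest reach upward was that of IQD26, to 2.38 on the log2 scale, and the widest downward that of IQD11, to -1.78.

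**Figure D3:**
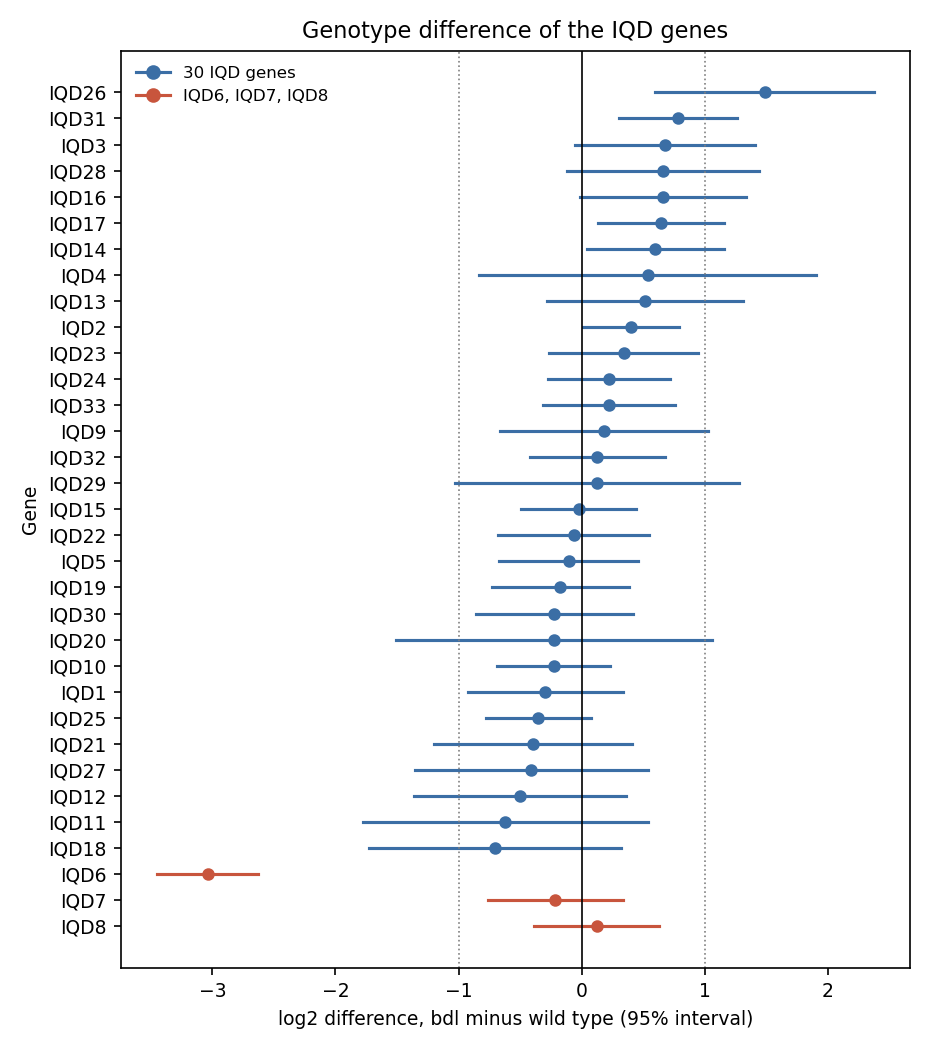
Log2 difference (bdl minus wild type) of each IQD gene with its 95% interval from limma, ordered by size for the 30 genes and with IQD6, IQD7 and IQD8 below them. Dotted lines mark a 2-fold change either way. All 30 intervals lie above that of IQD6, and the interval of IQD26 ends at 2.38.

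The 30 genes differed from IQD6 in their response. IQD6 had intensities of 354, 317, 362 and 275 in wild type and 38.2, 39.2 and 41.5 in bdl, and its log2 difference had an interval of -3.45 to -2.63. Of its nearest relatives, IQD7 had 18.0, 34.2, 22.6 and 22.6 in wild type and 19.7, 20.6 and 21.1 in bdl, a difference of -0.21 (interval -0.76 to 0.34). IQD8 had 99.3, 157, 103 and 119 in wild type and 142, 134 and 110.05 in bdl, a difference of 0.12 (interval -0.39 to 0.63). For both, the bdl arrays lay within the wild-type range. The lower ends of all 30 intervals lay above the upper end of that of IQD6. The difference was also tested itself, by fitting the ratio of each gene to IQD6 on every array. That ratio was higher in bdl for all 30 genes, by 2.33 for IQD18 to 4.52 for IQD26 on the log2 scale, and all 30 were called (limma, adjusted p from 2.46e-06 to 0.0022). The same test called 98.9% of all other genes, so the departure from IQD6 is not particular to IQD genes.

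By array, the mean log2 intensity of the 30 genes was 4.225 to 4.277 for wild type and 4.284 to 4.528 for bdl. The upper bdl value came from replicate 1. By the mean the genotypes did not overlap, with a narrow gap between wild-type replicate 3 and bdl replicate 2. That mean includes IQD26, which had the largest difference of the 30 (1.49). With IQD26 left out, the mean of bdl replicate 2 lay below those of wild-type replicates 1 to 3, so the genotypes overlapped. The median over the 30 genes was 3.57 to 4.13 for wild type and 3.68 to 4.20 for bdl, so that by the median they overlapped. Of the 30 genes, 15 lay above the midpoint of all intensities on all 7 arrays, as did 40.7% of all genes. Of these 15, the median log2 difference was 0.18 and 10 were above 0. Of the other 15, the median was -0.17 and 6 were above 0. The 5 genes without overlap were all among the first 15. Over all genes with a mean log2 intensity above the 50th percentile, the median log2 difference was 0.03. Shares above 0 and without overlap are not given here for all genes split by intensity.

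Partners of IQD proteins were read from lists of 11 calmodulin and calmodulin-like genes and 8 genes of scaffold partners. Among the calmodulin genes 1 fell, none rose and 10 did not pass, and the median log2 difference was -0.18. The gene that fell was CML8, one of the calmodulin-like proteins that IQD1 binds. It had 7.77, 10.2, 10.7 and 9.52 in wild type and 2.88, 3.48 and 3.64 in bdl, without overlap (log2 difference -1.51 ± 0.19, SE; limma, adjusted p = 0.00749), and it kept its call in all 7 omissions of 1 array (adjusted p at most 0.0406). The bdl values lie around the 25th percentile of all intensities (3.51) and are not known to exceed background. The canonical calmodulin genes CAM1 to CAM7 had differences of -0.31 (CAM6) to 0.28 (CAM1). CAM7 spanned 942 to 1321 for wild type and 912 to 1063 for bdl, and CAM4 125 to 165 and 135 to 152, with a difference of 0.00 (interval -0.42 to 0.42). CML9, which IQD1 also binds, had a difference of -0.37 with an interval of -1.19 to 0.45.

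No scaffold partner passed the test, and the median log2 difference of the 8 was 0.13. SPR2, the gene of a microtubule-binding protein, was 1 of the 2 with the smallest p. SPR2 had 35.4, 42.0, 20.7 and 38.4 in wild type and 18.0, 31.9 and 20.5 in bdl (log2 difference -0.54 ± 0.31; limma, adjusted p = 0.626). The KLCR genes, whose products bind IQD1, had differences of -0.06 (KLCR1), 0.32 (KLCR2) and 0.08 (KLCR3). The phragmoplast-orienting kinesin genes POK1 and POK2, which act at the division site, had 0.42 (interval -0.20 to 1.04) and -0.29 (interval -0.70 to 0.12). Of the 19 partners in both lists, 13 had an interval within a 2-fold change either way.

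**Figure D4:**
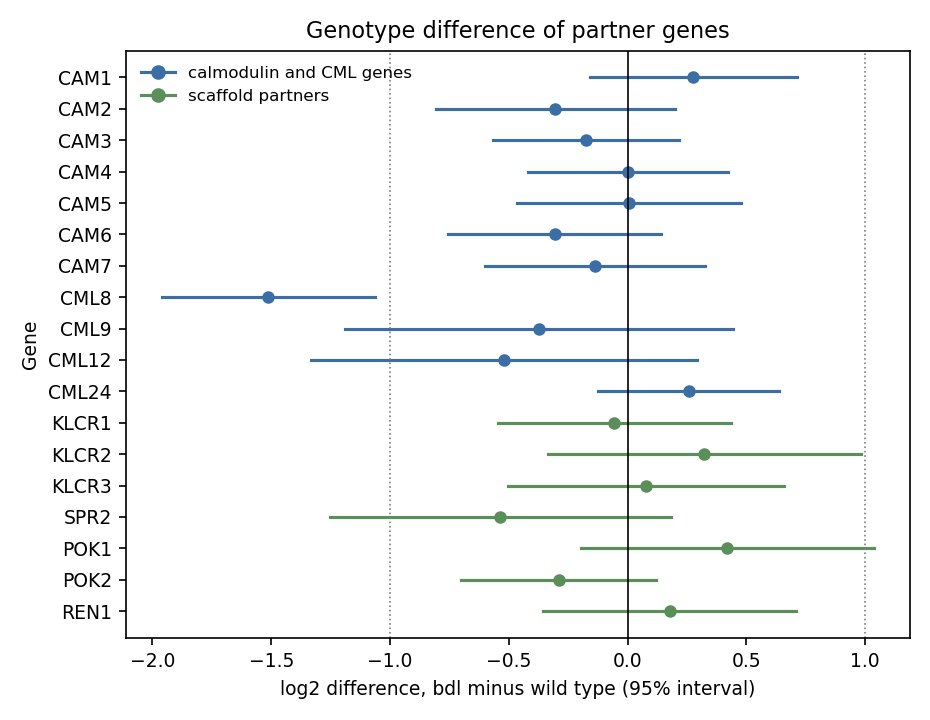
Log2 difference (bdl minus wild type) with its 95% interval from limma for 11 calmodulin and calmodulin-like genes and 7 of the 8 scaffold partner genes. CML8, at -1.51, is the one gene whose interval lies wholly beyond a 2-fold change, and the intervals of 13 of the 18 genes shown lie within it.

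Some IQD genes lie next to genes that changed. Of the 60 loci adjacent to the 30 IQD genes in locus order, 4 were called, or 6.67%, beside 1.76% of all genes, and these neighbours were looked at after their values were seen. IQD26 and IQD27 each adjoin an Aux/IAA gene, a member of the family of auxin response repressors to which IAA12 belongs. IAA26 (symbol PAP1), beside IQD26, had 14.4, 14.5, 11.4 and 17.4 in wild type and 4.28, 3.02 and 3.99 in bdl, and fell (log2 difference -1.94 ± 0.22, SE; limma, adjusted p = 0.00404). IQD26 itself pointed the other way, at 1.49 without a call. IAA18, beside IQD27, had 60.4, 102, 58.5 and 80.3 in wild type and 16.4, 24.3 and 25.7 in bdl, and fell too (-1.76 ± 0.27; limma, adjusted p = 0.0185). The call of IAA18 was lost without wild-type replicate 4 or any bdl array (adjusted p of 0.0358 to 0.0751 over the 7 omissions), and that of IAA26 held in all of them (at most 0.0206). As with CML8, the bdl values of IAA26 lie around the 25th percentile of all intensities and are not known to exceed background, and with a pseudocount of 16 its difference was -0.62. IQD27 had 38.6, 49.2, 18.8 and 31.1 in wild type and 27.1, 14.6 and 37.0 in bdl, with a difference of -0.41 (interval -1.35 to 0.54) that was -0.71 without bdl replicate 3 and -0.04 without bdl replicate 2. Its genotypes overlapped in part, with bdl replicate 2 below all wild-type arrays and wild-type replicates 1 and 2 above all bdl arrays.

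**Figure D5:**
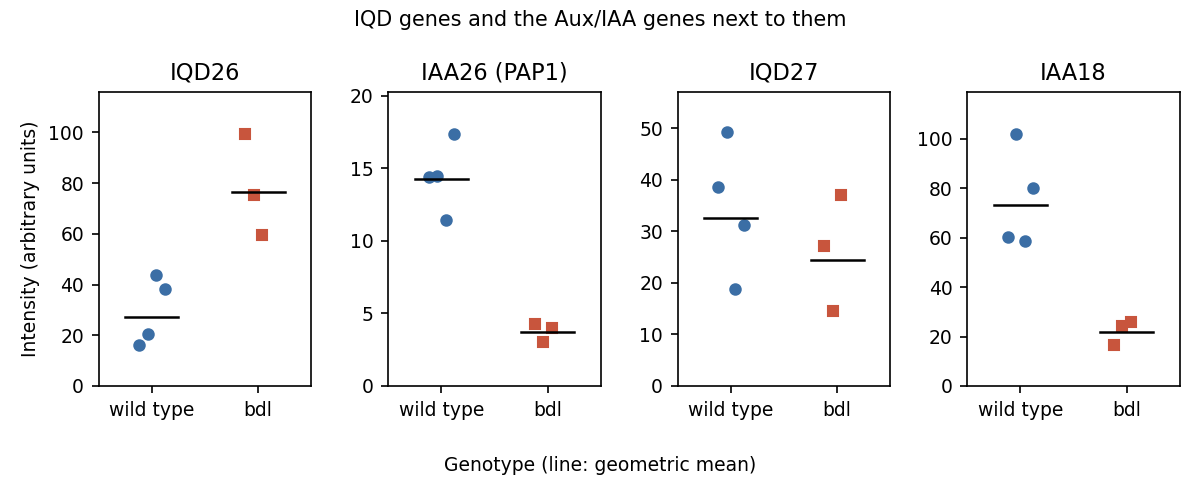
Intensity (arbitrary units, linear axis from 0) by genotype for IQD26 and its neighbour IAA26 (symbol PAP1) and for IQD27 and its neighbour IAA18, with each array as a point and the geometric mean as a line. Both Aux/IAA genes are lower on all 3 bdl arrays, IQD26 is higher on all 3, and the genotypes overlap in IQD27.

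The other called neighbours were RBL7, a rhomboid-like protease gene beside IQD22, at 2.05 (limma, adjusted p = 0.0205), and AT2G02780 beside IQD29, at 1.23 (limma, adjusted p = 0.045). RBL7 had 4.21, 4.29, 3.86 and 9.02 in wild type and 22.8, 23.3 and 16.9 in bdl. Its wild-type values other than that of replicate 4 lie near the 25th percentile of all intensities (3.51) and are not known to exceed background. Over the alternative fits its lowest difference was 0.80. RBL7 lost its call in 6 of the 7 omissions of 1 array, all but that of wild-type replicate 4 (log2 differences of 1.93 to 2.34), and AT2G02780 in all 7 (1.09 to 1.35). Paired arrangements recur at other members, since IQD22 and IQD24 lie beside the rhomboid genes RBL7 and RBL3, and IQD28 and IQD29 beside the kinase genes APK2A and APK2B. RBL3 had a difference of 0.13, APK2A of 1.002 and APK2B of 0.09, none of them called. IQD32 lies 2 loci from MONOPTEROS, with 1 gene between them.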

How the data were processed

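The authors deposited 1 table of intensity values, with a column for each of 7 arrays and a row for each of 27826 probe sets. Per the submitters' processing notes the tool was RMA, with no version; chip definition and build: not given in the sources used here. All values were above 0 and on a linear scale, as antilogs of RMA output would be, though no source says so, and log2 was taken with no pseudocount or further scaling. Symbols and neighbours (adjacent among loci present in both tables) came from RefSeq's TAIR10.1 gene table, which held all 98 listed genes.

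The comparison used limma 3.58.1 under R 4.3.3 (lmFit, then eBayes, 2-sided), with genotype as the only term over all probe sets and Benjamini-Hochberg adjustment, and was tested on simulated data. The ratio to IQD6 was fitted likewise, so its rows share the error of IQD6. Probe sequences were not used here, so signal shared between related IQD genes was not checked.

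Genes, lists and tests were chosen with earlier results of these data known. All 30 genes are named, with array values for the 10 with the smallest p, for differences of 1 or more, and for IQD6, IQD7, IQD8 and IAA12. Each partner list gives its called genes, or else the 2 with the smallest p, of which 1 scaffold partner is not reported here. Other array values, partners and neighbours were chosen after their values were seen. Alternatives were 3 scalings, 2 filters, a pseudocount of 16, the replicate number as a block, array weights, a trended robust variance, identical probe sets counted once, other thresholds and the omission of each array. The same fits for IAA12, CML8, 3 embryo markers and 4 neighbours were added after the data were examined. Figures were drawn with matplotlib 3.10.9.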

Additional observations from a re-analysis of the deposited data

Results flagged for a closer look

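A gap check was run on 38 values in wild type (the 33 IQD genes, their mean and 4 marker sums), asking whether 1 of the 4 arrays lay far from the rest. It marked 1 value, where about 1 in 20 would be marked by chance. Wild-type replicate 4 had a summed endosperm marker intensity of 7.66 on the log2 scale, and the remaining arrays had 8.32 to 8.43. No IQD gene was marked, and bdl has too few arrays for the check.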

How the results depend on the processing

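No IQD gene of the 30 was called under any of 17 alternative fits, or in the main fit at an adjusted p under 0.1. Over the alternative fits the lowest adjusted p (limma) was 0.092 for IQD2, 0.093 for IQD31 and 0.094 for IQD26. At an unadjusted p under 0.05, 5 IQD genes and 2 partner genes passed. The median log2 difference of the 30 stayed between 0.04 (without bdl replicate 1) and 0.18 (filter at the 50th percentile). The median of all genes was -0.03 with array medians centred, the lowest of the 3 scalings, against -0.01. Of the 30 genes, 20 kept their sign in every fit in which they were present, and 10 changed it in at least 1, namely IQD1, IQD4, IQD5, IQD9, IQD15, IQD19, IQD20, IQD22, IQD29 and IQD30. Among genes above the 50th percentile, 17 of the 30 entered the fit. All 17 departed from IQD6, 5 had an interval within a 2-fold change, and 0 partner genes were called, since CML8 did not enter. With a pseudocount of 16, which shrinks the differences of dim genes, 24 intervals lay within a 2-fold change, and CML8, for one, moved from -1.51 to -0.40. With the replicate block on 6 arrays, 0 of the 30 IQD genes and 0 partner genes were called, and 188 genes in all against 490. That fit also leaves out wild-type replicate 4, and without that array alone 365 were called. The calls of IAA12, DRN, BBM, CML8, IAA26, IAA18 and AT2G02780 were lost with the block. The labels do not say whether equal replicate numbers pair the samples. Deviations of same-numbered arrays correlated at 0.04 to 0.05, and those of wild-type replicate 4 and bdl replicate 2 at 0.11. With so few arrays these values cannot decide it. The count over all genes was 281, 278 and 299 without bdl replicate 1, 2 and 3. IQD6 was called in each of the 17 (log2 difference -3.12 to -2.62). With 4 against 3 arrays and no detection calls, changes of 2-fold or more could be missed, most readily in dim or variable members. IQD26, above the midpoint of all intensities on every array, was not called at a ratio of 2.80.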
